A study of Mus musculus with 6 samples.

Results

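The 49 genes described here encode, or are named after, the proteins of the cytosolic ribosome, and they were measured among 18193 genes in mouse B-cell acute lymphoblastic leukaemias with and without Cdh1. A gene was included when a probe set carried exactly 1 symbol of the form Rpl or Rps followed by a digit, or Rplp0, Rplp1, Rplp2 or Rpsa. The S6 kinases, Rps19bp1 and pseudogene symbols were left out. Where several probe sets named a gene, the one brightest on average was used. The 49 genes divide into 20 of the large subunit, 2 of the ribosomal stalk, 21 of the small subunit and 6 paralogs, and none was chosen by its difference between the groups. A RefSeq gene table lists 88 protein-coding symbols of this form, of which 48 are among the 49. Another 31 were named only by probe sets that carry several symbols, so the 49 are part of the family, and Rplp1, Rpl5, Rpl10, Rpl10l, Rps27a, Rpl3, Rpl36a, Rpl36al, Rpl26 and Rpl23 were not analysed here.

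The 2 groups of 3 mice were compared with 1 array per mouse. The Cdh1-deficient leukaemias came from Mx1-Cre(+)/Cdh1 f/f donors and the Cdh1-intact leukaemias from Mx1-Cre(-)/Cdh1 f/f littermates, all on C57BL/6, so both carry the floxed conditional gene-trap allele. Donors of both groups received pIpC, a mimic of double-stranded RNA that induces the interferon-responsive Mx1 promoter, at 7 to 8 weeks of age. Marrow was taken 4 weeks after the last dose, 2 days after 150 mg/kg 5-fluorouracil, and both groups carry N-myc from the retroviral vector pMXs-IG, which also marks cells with green fluorescent protein (GFP). RNA came from sorted GFP-positive marrow mononuclear cells of moribund mice, so each array reads a sorted bulk population at the end of disease. The Mx1 promoter is active in many interferon-responsive cells and is not limited to the B lineage.

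The cytosolic ribosome joins a small subunit, which decodes the messenger RNA, to a large subunit, which forms peptide bonds. Its proteins are made in matched amounts, and most of their messenger RNAs begin with a C and a run of pyrimidines, the 5′ terminal oligopyrimidine (TOP) tract, through which mTOR and Larp1 control their translation. Myc proteins, including N-myc, are known to promote the transcription of many ribosomal protein genes, and the E-box CACGTG is a sequence they bind. Free Rpl5 and Rpl11 bind Mdm2 and so link faulty ribosome assembly to p53. In haematopoietic cells, loss of a single copy of a ribosomal protein gene such as RPS19 causes Diamond-Blackfan anaemia in humans, and mouse Rpl22 is needed for normal lymphocyte development.

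The starts of the genes are shown first, because the TOP tract is the feature by which these transcripts are recognised. Sequences are from RefSeq, assembly GRCm38.p6, on the strand that reads as the transcript does. Each runs from 10 bases before the annotated start to 20 bases of transcript, which makes 30 bases. Capitals mark a C followed by at least 4 bases that are C or T, with its first base within 5 bases of the start. In some windows C or T bases also precede the capitals, in lower case. Members with such a tract are Rps6 (chr4:86857348-86857377, minus strand), Rpl14 (chr9:120571507-120571536, plus), Rpl27a (chr7:109519185-109519214, plus), Rpl12 (chr2:32961702-32961731, plus), Rpl22l1 (chr3:28805498-28805527, plus) and Rpl35 (chr2:39005112-39005141, minus). The first 5 have the largest negative differences of the family, and Rpl35 is a member of tight spread. None of these 5 has a probe set of a single symbol at a mean log2 level of 13 or more. Whether their differences belong to the gene or to the probe set was not tested.
Rps6: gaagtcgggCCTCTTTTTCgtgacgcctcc
Rpl14: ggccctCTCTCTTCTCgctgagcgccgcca
Rpl27a: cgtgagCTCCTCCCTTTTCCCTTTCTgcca
Rpl12: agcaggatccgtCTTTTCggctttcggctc
Rpl22l1: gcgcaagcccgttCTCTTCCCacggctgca
Rpl35: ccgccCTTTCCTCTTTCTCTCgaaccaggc

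The windows of Rpl7l1 (chr17:46782637-46782666, minus), Rpl6 (chr5:121204491-121204520, plus) and Rplp0 (chr5:115559457-115559486, plus), 3 members with positive differences, hold no such tract at the annotated start. These examples were chosen by their differences, and over all genes with windows both directions occur with and without a tract. Of the 20 genes with a tract, 8 were higher and 12 lower in Cdh1-deficient cells, with a median difference of −0.012. Of the 23 with windows but no tract, 12 were higher and 11 lower, with a median of 5.66e-05. The 6 genes with no window had 4 higher and 2 lower, and no test of these directions was made. No match says only that these letters are not in this window at the start RefSeq gives.
Rpl7l1: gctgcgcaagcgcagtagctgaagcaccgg
Rpl6: acctcccgtcattgcttatagaccggaagc
Rplp0: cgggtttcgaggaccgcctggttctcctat

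RefSeq promoter windows, from 250 bases before to 50 after the start, were matched for 43 of the 49 genes, with 51 windows in all. A tract as defined was present in 21 of the 51 windows (41.2%), against 6027 of 32851 windows of all genes (18.3%). CCGGAAG, a core of sites for ETS-family factors, was present on either strand in 21 member windows (41.2%), against 8.86% of all windows. AAGATGG, a core of YY1 sites, was present in 8 (15.7%), against 6.34%. The E-box CACGTG was present in 5 member windows (9.8%), against 7.15% of all windows. These are matches of letters and do not show binding.

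The E-box was held by 4 genes, and its surroundings are shown because both groups of leukaemias carry N-myc. The E-box is in capitals within 30 bases of Rpl14 (chr9:120571337-120571366, plus), Rpl13a (chr7:45128928-45128957, minus), Rpl19 (chr11:98026679-98026708, plus) and Rps19 (chr7:24884781-24884810, plus).
Rpl14: ccaagctcactgCACGTGtctgaggagaag
Rpl13a: cgctccgaaaccCACGTGacatcccgcccc
Rpl19: tacccagaggacCACGTGaccaaacgccct
Rps19: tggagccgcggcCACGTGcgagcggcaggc

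Array values are log2 levels from RMA, as the authors deposited them. The array medians lay between 5.07 and 5.13 and the maxima between 14.19 and 14.25. Fzr1, which encodes the Cdh1 of this study, an activator of the anaphase-promoting complex, read 8.10, 7.73 and 8.22 on Cdh1-deficient arrays 1 to 3, against 8.92, 8.04 and 8.92 on Cdh1-intact arrays 1 to 3. The ranges overlapped and the difference of −0.61 (SE 0.28) had an adjusted p of 0.849 in limma. Where the probe set lies relative to the gene trap was not examined. One array stands apart from its label of B-cell leukaemia. Over 11 of 12 listed B-lineage markers that were measured, mean levels were 9.07, 8.66 and 8.68 on the Cdh1-deficient arrays, against 8.82, 5.34 and 9.43 on the Cdh1-intact arrays. Over 11 of 12 T and NK cell markers they were 5.05, 4.99 and 4.99, against 5.23, 8.91 and 6.62. Over 11 of 12 neutrophil markers they were 9.04, 11.13 and 9.92, against 9.88, 5.97 and 8.97. Cdh1-intact array 2 thus has the lowest means for B-lineage and neutrophil markers and the highest for T and NK cell markers. Cd3d, a T-cell receptor subunit, was at 5.09, 5.41 and 5.36 on Cdh1-deficient arrays and 6.10, 12.55 and 8.69 on Cdh1-intact arrays. Of the 11 T and NK cell markers, 8 had their highest value on Cdh1-intact array 2 and 2, Cd8b1 and Klrd1, their lowest. Cdh1-intact array 3 had the next highest mean of these markers, at 6.62. In sorted bulk samples, fewer cells of a type and less RNA per cell cannot be told apart. Values without that array are given beside several of the results.

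None of the 49 genes differed between the groups past an adjusted p of 0.05 (limma, Benjamini-Hochberg over all 18193 genes), and neither did any other gene (0% of genes called, lowest adjusted p 0.849). At an unadjusted p under 0.05, limma gave 1 ribosomal protein gene higher in Cdh1-deficient cells and 0 lower, against 4.01% of all genes higher, 1.49% lower and 5.5% in either direction. Of the 49 genes, 24 had a higher and 25 a lower mean in Cdh1-deficient than in Cdh1-intact cells. The median difference was −0.0028, beside 0.0034 over all genes, and the differences ran from −0.39 to 0.58. The median size of a difference, regardless of sign, was 0.034 over the 49 genes and 0.135 over all genes. Without Cdh1-intact array 2, 20 of the 49 were higher and the median was −0.0071.

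**Figure D1:**
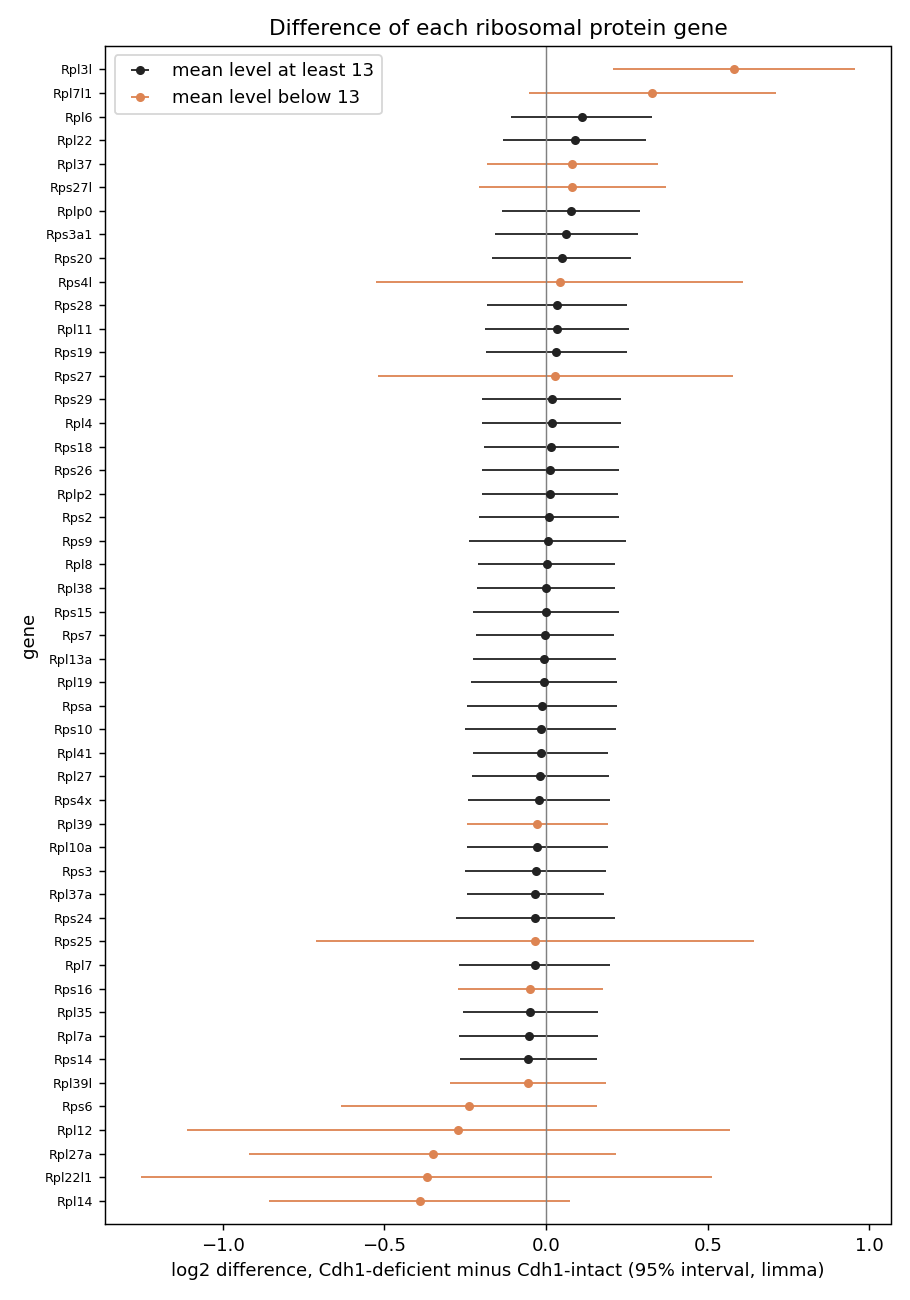
Each point is the log2 difference of 1 ribosomal protein gene, Cdh1-deficient minus Cdh1-intact, and each line its 95% interval from limma (3 arrays per group); black marks the 34 genes with a mean level of at least 13 and orange the 15 below. The interval of every gene but Rpl3l includes 0, and the 5 lowest points and the 2 highest all belong to genes below 13.

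The 3 arrays of one group did not overlap those of the other for 7 of the 49 genes. Rpl3l, Rpl6, Rpl22, Rplp0 and Rps20 were higher on all 3 Cdh1-deficient arrays, and Rpl35 and Rps14 lower on all 3. Among all genes 6.65% were higher without overlap and 5.09% lower, and both together made 11.7%, beside 14.3% of the ribosomal protein genes. Without Cdh1-intact array 2, 6 were higher and 3 lower without overlap, when 11.2% of all genes were higher and 10.2% lower.

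The level of the probe set divides the family into 2 kinds. In 34 genes the mean was at least 13, near the top of the scale, and these 34 were among only 84 of all genes at that height. Their means lay between 13.37 and 14.13, and 18 were higher and 16 lower in Cdh1-deficient cells, with a median difference of 0.00079 and a span of −0.054 to 0.11. The 95% intervals of all 34 lay between −0.28 and 0.33, with widths set in large part by the variance that limma pools over all genes. The range over the 6 arrays had a median of 0.104 and was never above 0.188. Whether probe sets so near the maximum respond in full to a change of RNA amount was not tested.

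The other 50 genes of at least 13 serve as the nearest comparison, though they were less bright. Their array means were 13.17 to 13.32, against 13.73 to 13.75 for the 34 ribosomal protein genes. The differences of the 50 genes ran from −0.20 to 0.73 with a median of 0.024. Their median range over the 6 arrays was 0.252, with a highest range of 2.77. Whether the smaller range of the 34 goes with their higher level was not tested. On Cdh1-intact array 2 the mean deviation of these 50 genes from their own means was −0.110, the median deviation −0.027, and 18 of them (36.0%) had their lowest value. The 34 ribosomal protein genes had a mean deviation of 0.0014 and a median deviation of 0.010 on that array, and 5 (14.7%) had their lowest value there. Of all 18193 genes, 24.0% had their lowest value there. The mean level of the 34 was 13.75, 13.73 and 13.75 on the Cdh1-deficient arrays and 13.74, 13.75 and 13.74 on the Cdh1-intact arrays. No test of the contrast between the 34 and the 50 genes was made. RMA quantile-normalizes between arrays, and the part of that step in the small ranges and near-equal means of the 34 was not tested.

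**Figure D2:**
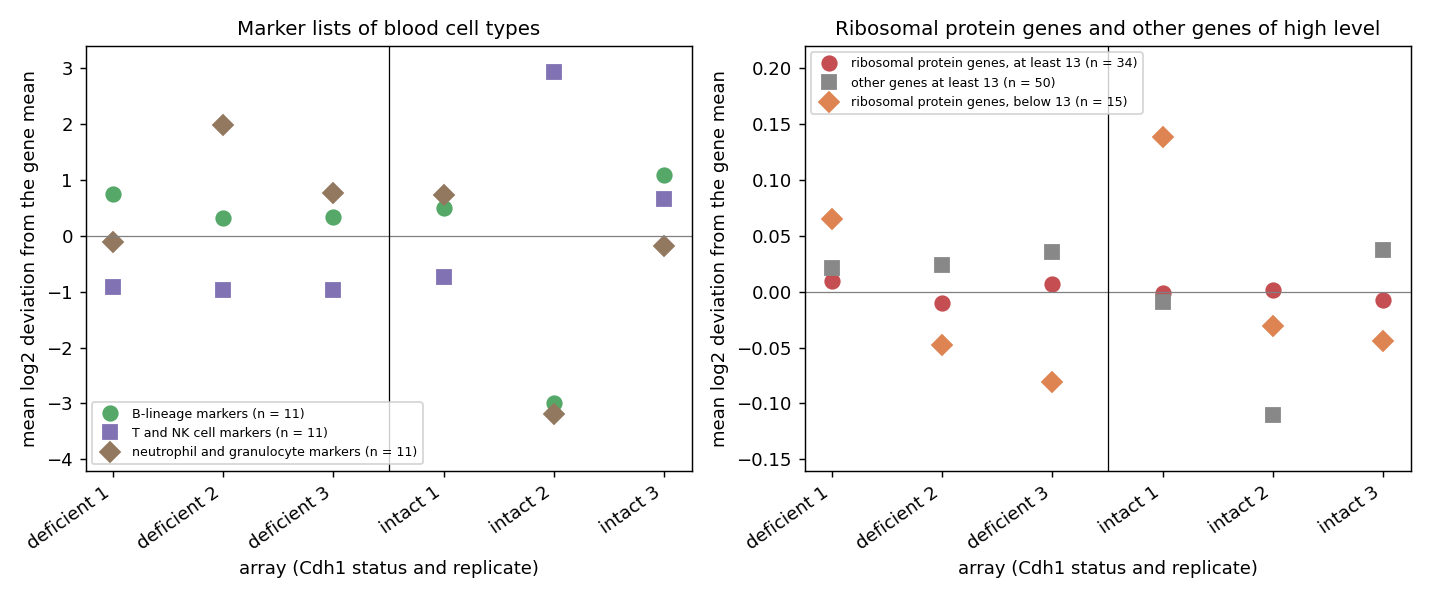
Mean log2 deviation from each gene's own mean on each array, Cdh1-deficient arrays left of Cdh1-intact arrays, for marker lists (left panel) and for genes grouped by level (right panel, with a narrower axis). On Cdh1-intact array 2 the means of the B-lineage and of the T and NK cell markers move in opposite directions. The mean of the 34 ribosomal protein genes of level 13 or more deviates there by 0.0014.

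In the remaining 15 genes the mean was below 13. Of these, 6 were higher and 9 lower in Cdh1-deficient cells, with a median difference of −0.035 and a median range over the arrays of 0.799. Of the 15 probe sets, 3 have a suffix (a, s or x) that marks shared targets, against 30 of the 34 at 13 or more. Such targets are shared between transcripts, which can be transcripts of the same gene. For 9 of the 15, a probe set with several symbols also carries the gene's name. Cdh1-intact array 1 had the highest value in 6 of the 15 genes, against 20.4% of all 18193 genes. It also had the highest mean of the erythroid markers (5 of 9 measured), whose means were 4.82, 5.71 and 5.35 on Cdh1-deficient arrays and 6.85, 4.96 and 4.85 on Cdh1-intact arrays. Of these 5, 3 had their highest value there, with Alas2 at 9.31 and Slc4a1 at 9.70. Cdh1-intact array 1 was highest too in the mean of the macrophage and monocyte markers (7 of 8 measured), at 5.48, 5.91 and 5.63, against 7.04, 4.76 and 5.34. Of these 7, 6 had their highest value there. The part of either marker list in the levels of the 15 genes was not tested.

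**Figure D3:**
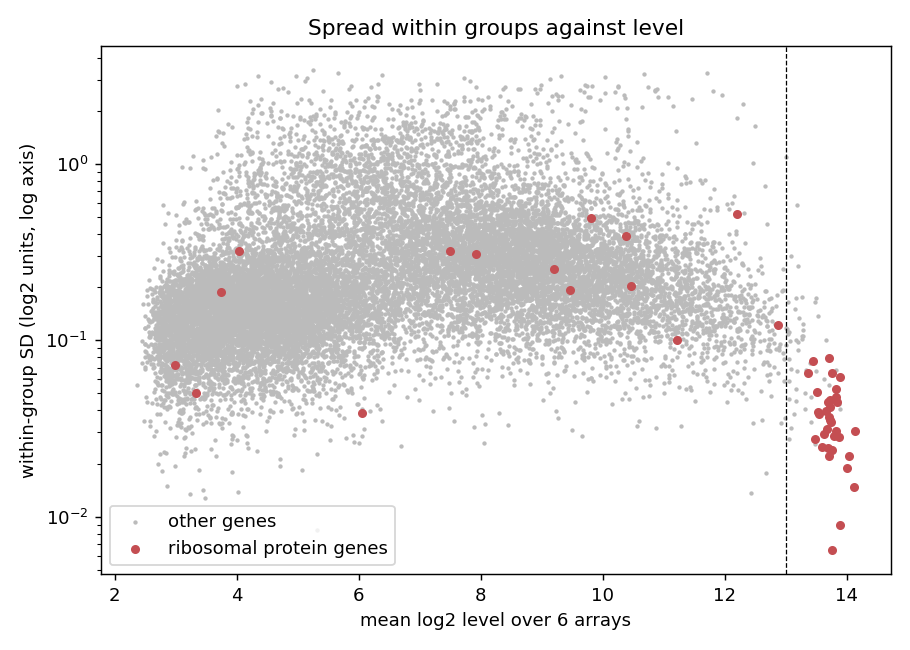
Mean log2 level over 6 arrays against the standard deviation within groups (log axis), with the 49 ribosomal protein genes in red and other genes in grey; the dashed line marks level 13. The 34 genes to its right have a median within-group standard deviation of 0.035 and the 15 to its left 0.204.

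Of the 20 large subunit genes, 7 were higher and 13 lower in Cdh1-deficient cells, with a median difference of −0.017. Rpl14 (chromosome 9) read 9.35, 8.70 and 8.99 in Cdh1-deficient cells, against 9.52, 9.45 and 9.23 in Cdh1-intact cells. The lowest arrays were Cdh1-deficient 2 and 3, and Cdh1-deficient 1 lay within the range of the intact arrays. The difference was −0.39 (SE 0.19, 95% interval −0.86 to 0.07, limma adjusted p 0.849), and it was −0.23 without Cdh1-deficient array 2. Rpl27a (chromosome 7) read 7.56, 7.47 and 6.95 against 8.01, 7.64 and 7.38 in Cdh1-intact cells, a difference of −0.35 (SE 0.23). Its extremes were Cdh1-deficient array 3 and Cdh1-intact array 1, and the groups overlapped. The difference was −0.16 without the first of these arrays and −0.19 without the other.

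Rpl12, which lies at the base of the stalk (chromosome 2), had the widest range of the family at 1.23. It read 9.44, 10.05 and 9.56 in Cdh1-deficient cells, against 10.66, 9.63 and 9.56 in Cdh1-intact cells. Cdh1-intact array 1 is the highest array and the other 5 lie between 9.44 and 10.05. The difference was −0.27 (SE 0.34, limma adjusted p 0.893), and leaving out Cdh1-intact array 1 gave 0.086, array 2 of that group −0.43.

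Rpl6 (chromosome 5) had the largest positive difference among the 34 genes of level 13 or more. It read 13.61, 13.54 and 13.59 in Cdh1-deficient cells, against 13.46, 13.52 and 13.44 in Cdh1-intact cells. The lowest Cdh1-deficient value lay just above the highest Cdh1-intact one. The difference was 0.11 (SE 0.09, 95% interval −0.11 to 0.33, limma adjusted p 0.849). Rpl22, known for its role in lymphocyte development (chromosome 4), read 13.76, 13.76 and 13.80 against 13.63, 13.67 and 13.75 in Cdh1-intact cells. Its groups do not overlap, with a difference of 0.088 (SE 0.09, limma adjusted p 0.866), while its other probe sets gave 0.041 and 0.24, both with overlap.

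Rpl35, next to the exit of the peptide tunnel (chromosome 2), was the tightest of the genes without overlap, at 13.75, 13.73 and 13.75 in Cdh1-deficient cells and 13.79, 13.79 and 13.79 in Cdh1-intact cells. All 3 deficient arrays were lower, by a difference of −0.048 (limma adjusted p 0.924). Rpl37, which can also bind Mdm2 (chromosome 15), read 11.38, 11.25 and 11.15 against 11.25, 11.09 and 11.20 in Cdh1-intact cells, a difference of 0.082 with overlap, which was 0.022 without Cdh1-deficient array 1 and 0.038 without Cdh1-intact array 2. Rpl11, a binding partner of Mdm2 (chromosome 4), read 13.82, 13.79 and 13.91 against 13.79, 13.80 and 13.83 in Cdh1-intact cells. Its groups overlapped and the difference was 0.035.

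Rpl38, known in mice for its part in the translation of Hox messenger RNAs, read 13.85, 13.91 and 13.85 in Cdh1-deficient cells and 13.85, 13.89 and 13.86 in Cdh1-intact cells, a difference of 0.0015. The differences were −0.0055 for Rpl13a, which is also known as a translational repressor, and −0.035 for Rpl7. Rpl39, on the X chromosome, differed by −0.026, with values between 5.98 and 6.08 on all 6 arrays.

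Both stalk genes had a higher mean in Cdh1-deficient cells. Rplp0, which anchors the stalk that binds elongation factors (chromosome 5), read 13.86, 13.80 and 13.86 against 13.76, 13.79 and 13.73 in Cdh1-intact cells. The groups did not overlap, and the difference was 0.077 (SE 0.09, limma adjusted p 0.880). Rplp2, the acidic stalk protein (chromosome 7), read 14.02, 14.00 and 14.00 against 13.98, 14.02 and 13.99 in Cdh1-intact cells, with overlap and a difference of 0.011.

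**Figure D4:**
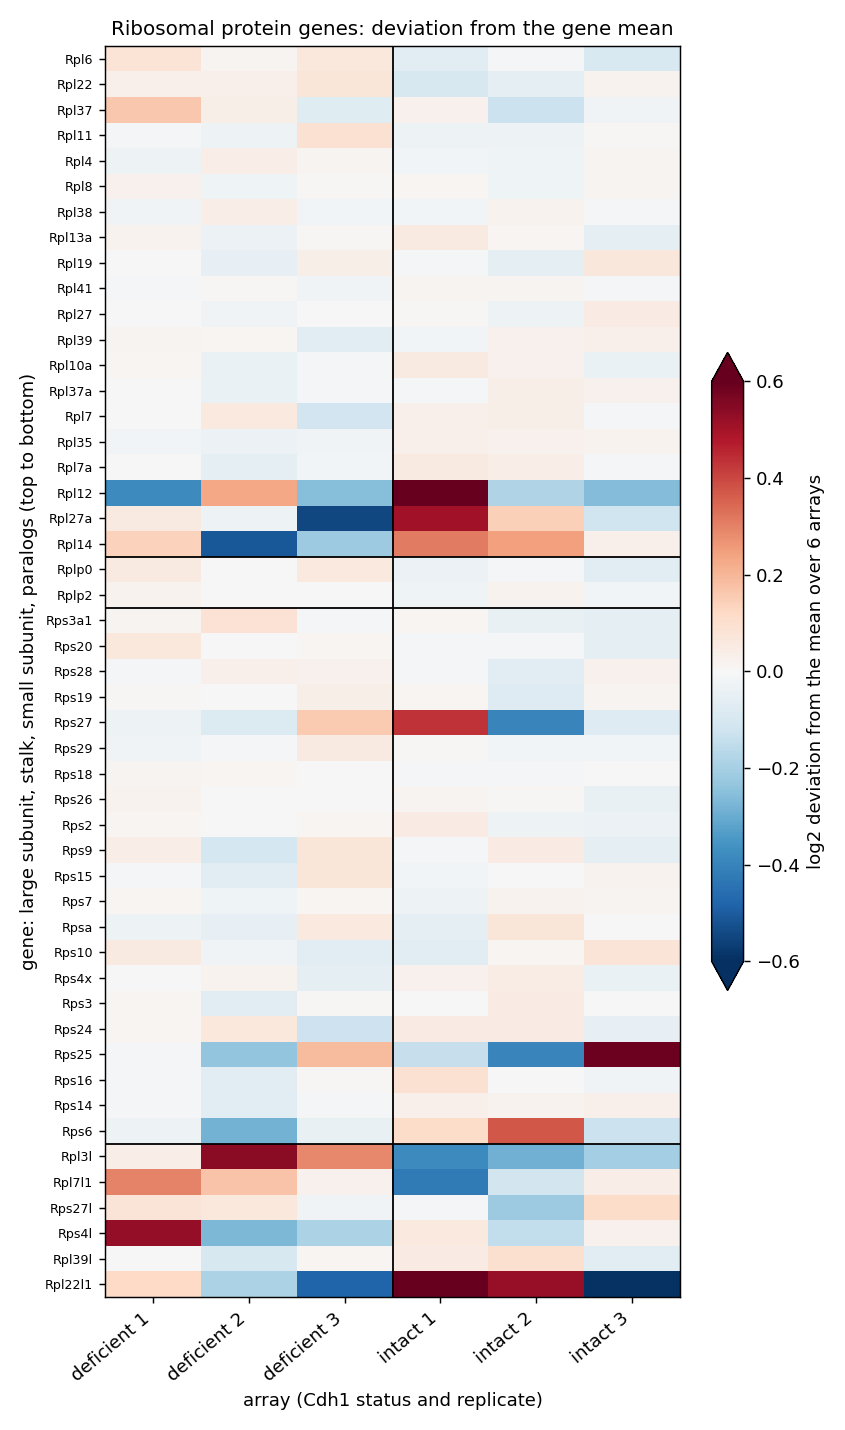
Log2 deviation of each of the 49 genes from its own mean over 6 arrays (colour), with Cdh1-deficient arrays left of Cdh1-intact arrays and genes grouped as large subunit, stalk, small subunit and paralogs, in order of their difference within a group. Strong colours sit in a few rows, such as Rpl12, Rps25 and Rpl22l1, and they differ between arrays of one group; Rpl12 spans 1.23 over the arrays.

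Of the 21 small subunit genes, 11 were higher and 10 lower, with a median difference of 5.66e-05. Rps6, the substrate of the S6 kinases (chromosome 4), read 10.44, 10.18 and 10.42 in Cdh1-deficient cells, against 10.58, 10.84 and 10.34 in Cdh1-intact cells. Cdh1-intact array 3 lay inside the range of the deficient arrays, so the groups overlapped. The difference was −0.24 (SE 0.16, 95% interval −0.63 to 0.16, limma adjusted p 0.849), and it was −0.11 without Cdh1-intact array 2, the array with the highest value.

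Rps25, a protein of the small subunit head used by some viral internal ribosome entry sites (chromosome 9), read 10.37, 10.14 and 10.57 against 10.24, 9.98 and 10.97 in Cdh1-intact cells. The 2 extremes are both Cdh1-intact arrays, and the difference of −0.035 (SE 0.28) was −0.24 without array 2 of that group and 0.25 without array 3. Rps27 (chromosome 3) also had both extremes on Cdh1-intact arrays, at 7.90, 7.85 and 8.09 against 8.36, 7.53 and 7.85 in Cdh1-intact cells. Its difference was 0.029 (SE 0.22), and −0.16 without Cdh1-intact array 2.

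Rps14 (chromosome 18), whose human counterpart is lost in a form of myelodysplastic syndrome, read 13.71, 13.65 and 13.71 in Cdh1-deficient cells, against 13.74, 13.74 and 13.75 in Cdh1-intact cells. All 3 deficient arrays were lower, by −0.054 (SE 0.09, limma adjusted p 0.913), while its other probe set gave −0.048 with overlap. Rps20, mutated in a mouse with dark skin (chromosome 4), was higher on all 3 deficient arrays, at 13.69, 13.63 and 13.64 against 13.62, 13.61 and 13.57 in Cdh1-intact cells, and the difference was 0.048 (limma adjusted p 0.925). Its other probe sets gave 0.039, 0.20 and 0.30, all with overlap.

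Rps19, the gene most often affected in Diamond-Blackfan anaemia, read 13.67, 13.66 and 13.70 in Cdh1-deficient cells and 13.67, 13.58 and 13.68 in Cdh1-intact cells. The groups overlapped, with a difference of 0.032, which was 0.00090 without Cdh1-intact array 2, the lowest. Rpsa, also known as a laminin receptor (chromosome 9), differed by −0.013, Rps3, which also acts in DNA repair, by −0.032, and Rps4x, on the X chromosome, by −0.022, all with overlap.

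The members of both subunits not named so far all overlapped between the groups. Their differences ran from −0.054 for Rpl7a, of the large subunit, to 0.062 for Rps3a1, of the small subunit. Rps16 lay between 3.27 and 3.43 on all 6 arrays, below the lower quartile of the arrays, and differed by −0.048.

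The 6 paralogs included the 2 largest positive differences of the family, with 4 higher, 2 lower and a median of 0.062, which was −0.013 without Cdh1-intact array 2. Rpl3l, the striated-muscle counterpart of Rpl3 (chromosome 17), read 3.78, 4.28 and 4.03 in Cdh1-deficient cells, against 3.36, 3.45 and 3.54 in Cdh1-intact cells. All 3 deficient arrays were higher, but all 6 values lie near the lower quartile of the arrays, at 3.75 to 3.83. The means were 4.03 ± 0.25 and 3.45 ± 0.09 (SD, n = 3 each), and the difference was 0.58 (SE 0.15, 95% interval 0.21 to 0.96, limma unadjusted p 0.0090, adjusted p 0.849).

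Rpl7l1, related to the yeast assembly factor Rlp7 (chromosome 17), read 9.77, 9.64 and 9.50 in Cdh1-deficient cells, against 9.05, 9.36 and 9.51 in Cdh1-intact cells. Only Cdh1-intact array 3 reached the range of the deficient arrays. The difference was 0.33 (SE 0.16, 95% interval −0.05 to 0.71, limma adjusted p 0.849), and its other probe sets gave 0.36 and 0.11. Without Cdh1-intact array 1, the lowest, the difference was 0.20.

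Rpl22l1, the paralog that can compensate for loss of Rpl22 (chromosome 3), read 12.32, 12.01 and 11.72 in Cdh1-deficient cells, against 12.82, 12.72 and 11.61 in Cdh1-intact cells. Cdh1-intact array 3 is the lowest of all 6 and the other intact arrays are the 2 highest. The difference was −0.37 (SE 0.36, 95% interval −1.25 to 0.51, limma adjusted p 0.863), and it was −0.76 without Cdh1-intact array 3, −0.15 without array 1 and −0.20 without array 2. Rpl22 and Rpl22l1 thus had differences of opposite sign, 0.088 and −0.37, and both intervals include 0.

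Rps27l, known as a p53 target (chromosome 9), read 12.96, 12.94 and 12.86 against 12.86, 12.66 and 12.98 in Cdh1-intact cells. The difference of 0.081 (SE 0.12) was −0.0071 without Cdh1-intact array 2, the lowest. Rpl39l, a testis-enriched paralog, lay between 2.90 and 3.09 on all arrays and differed by −0.055. Rps4l, a copy related to Rps4x, read 4.56, 3.76 and 3.84 against 4.09, 3.89 and 4.06 in Cdh1-intact cells, a difference of 0.043 with 1 deficient array above the rest. The difference was −0.21 without that array and −0.019 without Cdh1-intact array 2.

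**Figure D5:**
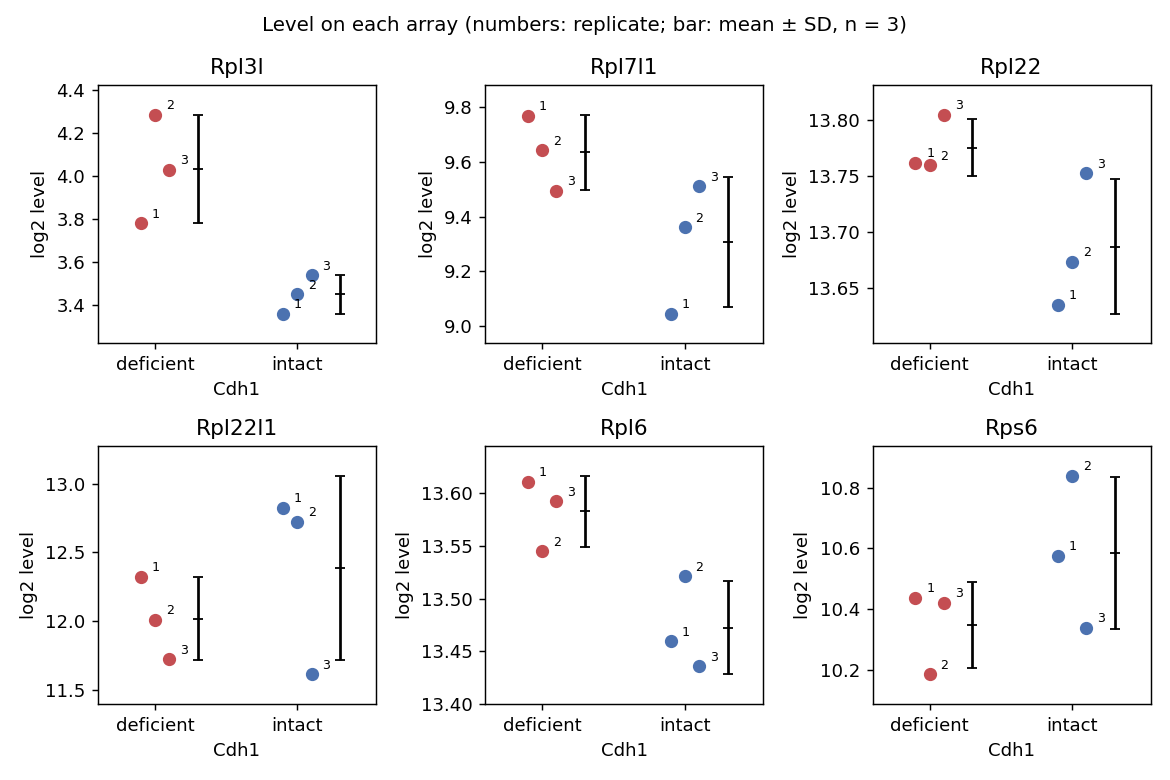
Log2 level on each array (points, with the replicate number) and mean ± SD (bars, n = 3 per group) for 6 ribosomal protein genes, Cdh1-deficient left of Cdh1-intact; each panel has its own axis. Rpl3l, Rpl22 and Rpl6 do not overlap between the groups, with differences of 0.58, 0.088 and 0.11, and the other 3 genes do.

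A gene's probe sets could disagree. The 49 genes had 105 probe sets in all, with 25 genes on a single one and 7 of the other 24 with differences of both signs. Rpl41, the smallest ribosomal protein, had the widest gap. Its chosen probe set read 14.10, 14.12 and 14.10 against 14.13, 14.14 and 14.11 in Cdh1-intact cells, while a dimmer one read 8.43, 9.20 and 8.14 against 10.42, 9.03 and 8.41, for differences of −0.017 and −0.70. On the dimmer set Cdh1-intact array 1 was the highest, and the other 5 arrays lay between 8.14 and 9.20. Another bright probe set of Rpl41, of mean level 13.72, was lower on all 3 deficient arrays without overlap, by −0.15.

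The dimmest probe set of Rpl35 read 5.73, 5.65 and 5.45 in Cdh1-deficient cells, against 6.54, 6.14 and 5.99 in Cdh1-intact cells, a difference of −0.62. All 6 of its probe sets had a lower mean in Cdh1-deficient cells, and 4 did so without overlap, where 5.09% of all genes were lower without overlap. Probe sets of the same gene can share targets and are not independent readings. The dimmest probe set of Rpl37a differed by −0.59 where the chosen one differed by −0.033, both with overlap. Its remaining probe set, of mean level 13.62, was lower without overlap, by −0.062. A dim probe set of Rps24, another Diamond-Blackfan gene, differed by −0.42 where the chosen one differed by −0.034. All 46 member probe sets below 13 gave 18 higher and 28 lower, with a median of −0.068, and their highest value fell on Cdh1-intact array 1 in 21 (45.7%), against 22.1% of 34828 named probe sets below 13. No member probe set below 13 had its highest value on Cdh1-deficient array 3, against 12.7% of the named probe sets below 13. The 46 include several probe sets of some genes.

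The 110 probe sets that carry several symbols with a ribosomal protein symbol among them were read apart, since their signal cannot be given to 1 gene. Of these, 46 were higher and 64 lower in Cdh1-deficient cells, with a median difference of −0.0074 and a span of −1.01 to 0.50. Their median level was 13.56, and 78 of them lay at 13 or more.

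The 4 genes with an E-box differed by −0.39 (Rpl14), −0.0055 (Rpl13a), −0.0073 (Rpl19) and 0.032 (Rps19).

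Other genes of translation were read from lists. Of 25 other TOP and translation genes 21 were measured, 8 higher and 13 lower in Cdh1-deficient cells, with a median difference of −0.039 and none past the adjusted threshold in limma. Eif4a2, a helicase of translation initiation, read 11.15, 11.66 and 10.81 against 12.00, 11.76 and 11.25 in Cdh1-intact cells, a difference of −0.46 (SE 0.28) with overlap, which was −0.26 without Cdh1-deficient array 3. Eif3e, a subunit of initiation factor eIF3, read 12.80, 12.79 and 12.81 against 12.85, 13.02 and 12.98, lower on all 3 deficient arrays with a difference of −0.15 (SE 0.10). The sign turned, to 0.046, when probe sets with shared targets were left out.

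Of 18 regulators of TOP messenger RNAs and S6 kinases 15 were measured, 8 higher and 7 lower, with a median of 0.0055. Tsc1, an inhibitor of mTOR signalling, read 7.86, 7.96 and 7.81 in Cdh1-deficient cells, against 7.13, 7.64 and 7.44 in Cdh1-intact cells. It was higher on all 3 deficient arrays by 0.47 (SE 0.15, limma unadjusted p 0.022, adjusted p 0.849), and by 0.20 when the mean of all its probe sets was taken. Eif4e, which binds the messenger RNA cap, read 11.94, 12.01 and 11.91 against 11.64, 11.70 and 11.76 in Cdh1-intact cells, also without overlap, with a difference of 0.26 (SE 0.09), which was 0.12 over the mean of its probe sets.

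Of 21 ribosomal protein chaperones and genes of the Mdm2 checkpoint 17 were measured, 8 higher and 9 lower, with a median of −0.017. Cdkn1a, which encodes the cell cycle inhibitor p21, read 6.43, 6.88 and 6.60 against 7.04, 7.64 and 6.89 in Cdh1-intact cells, without overlap and with a difference of −0.55 (SE 0.23, limma adjusted p 0.849). It was −0.32 without Cdh1-intact array 2, the array with the highest value. Ccng1, another p53 target, differed by −0.36 (SE 0.25), and by −0.11 without Cdh1-intact array 2.

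The proteins of the mitochondrial ribosome, which translates the mitochondrial genome, formed the last list. Of 76 such genes 46 were higher and 30 lower, with a median of 0.053, and 7 were higher and 3 lower without overlap (13.2%), beside 11.7% of all genes. Those higher were Mrpl1, Mrpl33, Mrps17 and Mrps18c on chromosome 5, Mrpl9 and Mrps21 on chromosome 3, and Mrpl49 on chromosome 19. Those lower were Mrpl18 (chromosome 17), Mrpl52 (chromosome 14) and Mrps36 (chromosome 13). The part of chromosome position in these differences was not tested. Mrpl49 read 10.09, 10.17 and 9.87 against 9.20, 9.29 and 9.35 in Cdh1-intact cells, higher on all 3 deficient arrays by 0.76 (SE 0.12). Mrps17 read 11.12, 10.91 and 11.01 against 10.71, 10.51 and 10.73 in Cdh1-intact cells, also higher on all 3, by 0.37 (SE 0.11). Neither passed the adjusted threshold (limma adjusted p 0.849 for both). No test of the difference between the mitochondrial and the cytosolic genes was made.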

How the data were processed

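Expression was read on 6 arrays, from 3 Cdh1-deficient and 3 Cdh1-intact mice, on one-colour Affymetrix arrays and grouped by their titles. The values are log2 levels that the authors deposited after RMA, per the submitters' processing notes, with no version given. RMA corrects background, quantile-normalizes between arrays and summarizes probes, so a change of total RNA per cell cannot be seen. The number of arrays limits the precision. The p-values rest on each gene's spread between these mice, combined by limma with a variance pooled over all genes. For genes of tight spread the pooled variance sets most of the SE. The 34 genes of level 13 or more had a median SE of 0.088 and a median within-group standard deviation of 0.035. For Rpl35 the SE was 0.085 and the within-group standard deviation 0.0065.

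Of 45101 probe sets, 34945 carried 1 symbol in a platform annotation and 34741 of these matched RefSeq (GRCm38.p6). Another 932 carried several symbols, and 64 were controls. Each gene took its brightest probe set, which gave 18193 genes, with no filter on level. The comparison used limma (version 3.58.1, R version 4.3.3) with lmFit and eBayes, two-sided, with Benjamini-Hochberg adjustment over all genes and a threshold of 0.05. The fit was also tested on simulated data. Differences are Cdh1-deficient minus Cdh1-intact, with the moderated standard error (SE).

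The members and lists were chosen with earlier results of these data known, and the division at level 13 after their levels were seen, so counts and medians over them are descriptions. Named genes are the 6 of smallest p in each direction, 30 fixed members of which 20 were measured, the 6 of widest range, the 4 whose probe sets disagree most, and 2 of each other list. Rpl7a, Rpl19, Rps3a1, Rps4l, Rps16 and Rps20 were named after their values were seen. Alternatives were 9 other settings, each array left out, and 2 counts of probe sets added after seeing the data.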

Additional observations from a re-analysis of the deposited data

How the results depend on the processing

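No gene passed an adjusted p of 0.05 in limma under any of the 9 other settings or without any 1 array, and at an unadjusted p under 0.05 limma gave between 0 and 3 ribosomal protein genes, with 3 of 49 without Cdh1-intact array 3, where 1751 of 18193 genes passed. The lowest adjusted p was 0.0536 for any gene (without Cdh1-deficient array 2) and 0.444 for a ribosomal protein gene (without Cdh1-intact array 3). With the replicate block, 0 genes were called and the median over the 49 genes was −0.0028; same-numbered arrays correlated at −0.139, 0.011 and 0.041, so the numbers were not taken as pairs. Without shared-target probe sets 26 of the 49 genes were left, with 9 higher, 2 higher and 1 lower without overlap (6.5% and 5.21% of all genes). The medians were −0.031 over all, −0.271 for the large subunit, −0.041 for the small and 0.186 for the paralogs. Of the stalk only Rplp0 was left, at 0.077. Rpl35 and Rpl41 were read in that setting by dim probe sets, of mean level 5.92 and 8.94. Median centring gave a median of 0.012 over the family and −0.0021 for the large subunit, with 1 gene lower without overlap (4.42% of all genes), where the median of all genes was 0.018. The mean of all probe sets gave 3 higher and 5 lower without overlap (6.04% and 5.94% of all genes). Counted singly, 46 of 105 member probe sets were higher, and 46 of 110 with several symbols.

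Over the 6 fits that leave out an array, 20 to 28 genes were higher, 5 to 9 were higher without overlap and 2 to 11 lower (17.3% to 28.4% of all genes in either direction). Medians ran from −0.010 to 0.012 over the family, −0.0089 to 0.015 for the small subunit and −0.013 to 0.130 for the paralogs. Over the 48 named genes, 20 differences turned sign and 268 did not, each gene counted once in each fit. The ranges were −0.47 to 0.086 for Rpl12, −0.047 to 0.020 for Rpsa, −0.0015 to 0.059 for Rpl11, −0.16 to 0.25 for Rps27, −0.0071 to 0.155 for Rps27l, −0.042 to 0.0012 for Rpl39 and −0.074 to 0.013 for Rpl7. They were −0.019 to 0.013 for Rpl38, −0.036 to 0.019 for Rpl13a, −0.24 to 0.25 for Rps25, −0.074 to 0.020 for Rps24, −1.75 to 0.50 for Alas2 and −0.095 to 1.14 for Cd68. Signs also turned with array weights for Rpsa (0.0096), Rpl38 (−0.0015) and Rpl13a (0.0029), with median centring for Rpsa (0.0014) and Rpl13a (0.0093), and with quantile normalization for Rps27 (−0.031), where Rpl41 came to 0. They turned for Rps3 with the mean of probe sets (0.018) and without shared-target sets (0.031), and for Eif3e without those sets (0.046). The cause was not tested.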
